A study of Mus musculus with 6 samples.

Results

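DNA replication and S phase genes encode the proteins that copy the genome, and 50 of them were examined in mouse long-term hematopoietic stem cells with and without induced loss of 1 Myc allele. Members were matched by gene symbol in the deposited count table. It held 48 of the 50 among its 11779 genes, and all 48 passed a filter on low counts that kept 10869 genes. Gins2 and Rfc5 were not analysed here. Every other member is accounted for in the counts below.

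Both groups came from female mice aged 8 weeks that carried 1 floxed and 1 unmodified Myc allele. WT mice (genotype c-Mycfl/+, n = 3 libraries) had no Cre. HET mice (c-Mycfl/+Mx1Cre, n = 3) also carried Mx1-Cre, in which an interferon-responsive promoter that is active in many cell types drives the recombinase. Excision was induced with 3 intraperitoneal doses of poly(I:C), a double-stranded RNA mimic, at 6 mg/kg, and whether WT mice received it is not stated separately. Bone marrow cells were sorted as lineage-negative, Sca1+, c-Kit+, CD48- and CD150+. Each group has a library 1, 3 and 4, and titles call the HET libraries KO. Labels do not say that each library is a separate mouse, so p-values measure the spread between these libraries, which may be technical.

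Replication is prepared in G1, when the origin recognition complex, Cdc6 and Cdt1 load the MCM2-7 helicase onto DNA. In S phase the kinase Cdc7 helps to recruit Cdc45 and the GINS complex, primase and polymerases copy the strands, the sliding clamp PCNA keeps the polymerases on DNA, and flap removal and ligation join the fragments. Most of these genes are induced by E2F transcription factors as cells leave quiescence, the resting state in which most long-term stem cells are held, and MYC is known for driving entry into the cell cycle.

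Total counts lay between 4249490 and 5600856 in 5 libraries and were 9886223 in HET 1. Myc measured 447.4, 427.4 and 541.8 CPM (CPM being each count relative to its library's scaled total) for WT 1, 3 and 4. The HET 1, 3 and 4 values were 293.8, 386.7 and 372.0 CPM, so HET 1 was the lowest library. Its log2 fold change was -0.43 ± 0.12 (SE; edgeR adjusted p = 0.312). Of the genes behind the sort, Kit lay between 1091.3 and 1258.1 CPM, Ly6a (Sca1) between 21.8 and 40.1 CPM and Slamf1 (CD150) between 57.0 and 84.0 CPM over the 6 libraries. Cd48, whose protein the sort selected against, measured 3.25, 2.74 and 1.67 CPM in WT and 3.67, 8.29 and 8.96 CPM in HET (log2 fold change 1.41 ± 0.61 SE; edgeR adjusted p = 0.849). The edgeR test called 0.258% of all genes at an adjusted p under 0.05, and 0.616% once HET 1 was left out.

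E2F sites in the promoters come first, since they are the sequence feature by which these genes are best known. RefSeq promoters (GRCm38.p6) were listed for 41 of the 48 members. The motif was searched as TTTCCCGC, TTTGGCGC, TTTCGCGC or TTTGCCGC, on both strands, in the 250 bases before each start. Matches were found in 9 of the 41 members (21.95%), against 4.06% of 9457 genes of the table and 2.16% of all 27025 genes listed. These members were Mcm5, Mcm6, Mcm7, Gins3, Cdc6, Orc1, Pola1, Rfc3 and Uhrf1. The stretches below are those of the members whose values the results turn on, read 5′ to 3′ on the gene's strand, with the E2F letters in capitals. In Mcm6 and Mcm5 a pair of matches on opposite strands overlaps and appears as 1 run of capitals.

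Mcm6, chr1:128359733-128359827, minus strand: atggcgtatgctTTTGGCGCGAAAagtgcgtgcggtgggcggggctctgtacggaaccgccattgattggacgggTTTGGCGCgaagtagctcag
Mcm5, chr8:75109344-75109379, plus strand: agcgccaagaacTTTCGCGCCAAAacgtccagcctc
Uhrf1, chr17:56304116-56304147, plus strand: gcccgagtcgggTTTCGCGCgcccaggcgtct
Orc1, chr4:108579415-108579446, plus strand: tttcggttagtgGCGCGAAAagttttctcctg
Pola1, chrX:93632274-93632305, minus strand: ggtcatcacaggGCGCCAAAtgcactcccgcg
Cdc6, chr11:98908001-98908032, plus strand: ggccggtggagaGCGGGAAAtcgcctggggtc

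Mcm6 held 3 matches and Mcm5 held 2, while the other 7 members held 1 each. In Uhrf1 the match precedes a start inside the annotated gene, and no match was found before its other listed start. The Mcm7, Gins3, Cdc6, Orc1 and Rfc3 matches also lay inside the annotated gene. The CCAAT box, searched as CCAAT on both strands, was found in 25 of the 41 members (60.98%), against 40.66% of the table's genes and 37.49% of all genes listed. The E-box CACGTG, which MYC and its partner MAX can bind, was found in 6 members. These were 12.24% of the members' 49 promoters, against 8.29% of the promoters of the table's genes and 6.02% of all promoters. A match describes letters in this window and does not show that a factor binds there.

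No replication gene was called different between HET and WT in the edgeR fit of all 6 libraries. Of the 48 members 0 passed an adjusted p of 0.05, against 0.258% of all genes, and DESeq2 called 0. An unadjusted p under 0.05 was reached by 0 members, against 5.22% of all genes. With so few calls over all genes, a lack of calls does not show a lack of change. In 0 of the 48 did the HET and WT libraries fail to overlap, against 10.3% of all genes. Their log2 fold changes ran from -0.69 for Orc1 to 0.44 for Pole2, with 31 positive and 17 negative values and a median of 0.07, against 0.004 over all genes. For 42 of the 48 the 95% interval of the fold change lay within 1 log2 unit of 0 on either side, so a doubling or halving was outside it.

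What set the libraries apart was 1 HET library. HET 1 was the highest of the 6 libraries in 40 of the 48 members (83.3%), against 17.7% of all genes, and it lay above both other HET libraries in 47 (97.9%), against 35.1%. HET 1 exceeded the mean of HET 3 and HET 4 by a median of 0.66 on the log2 scale, with members from 0.06 for Orc2 to 1.49 for Rfc4, while the median over all genes was 0.00. Summed over the members, the WT 1, 3 and 4 levels were 5709.3, 6397.5 and 5613.6 CPM, and the HET 1, 3 and 4 levels were 8277.4, 5050.9 and 5383.6 CPM. The HET libraries thus lay on both sides of WT, with WT 3 the highest of the WT group. The spread in HET (median SD of the log2 level 0.42, n = 3) exceeded that in WT (0.19, n = 3) in 40 members, or 83.3%, against 52.7% of all genes. No test of HET 1 against the other libraries was made, because it is 1 library.

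**Figure D1:**
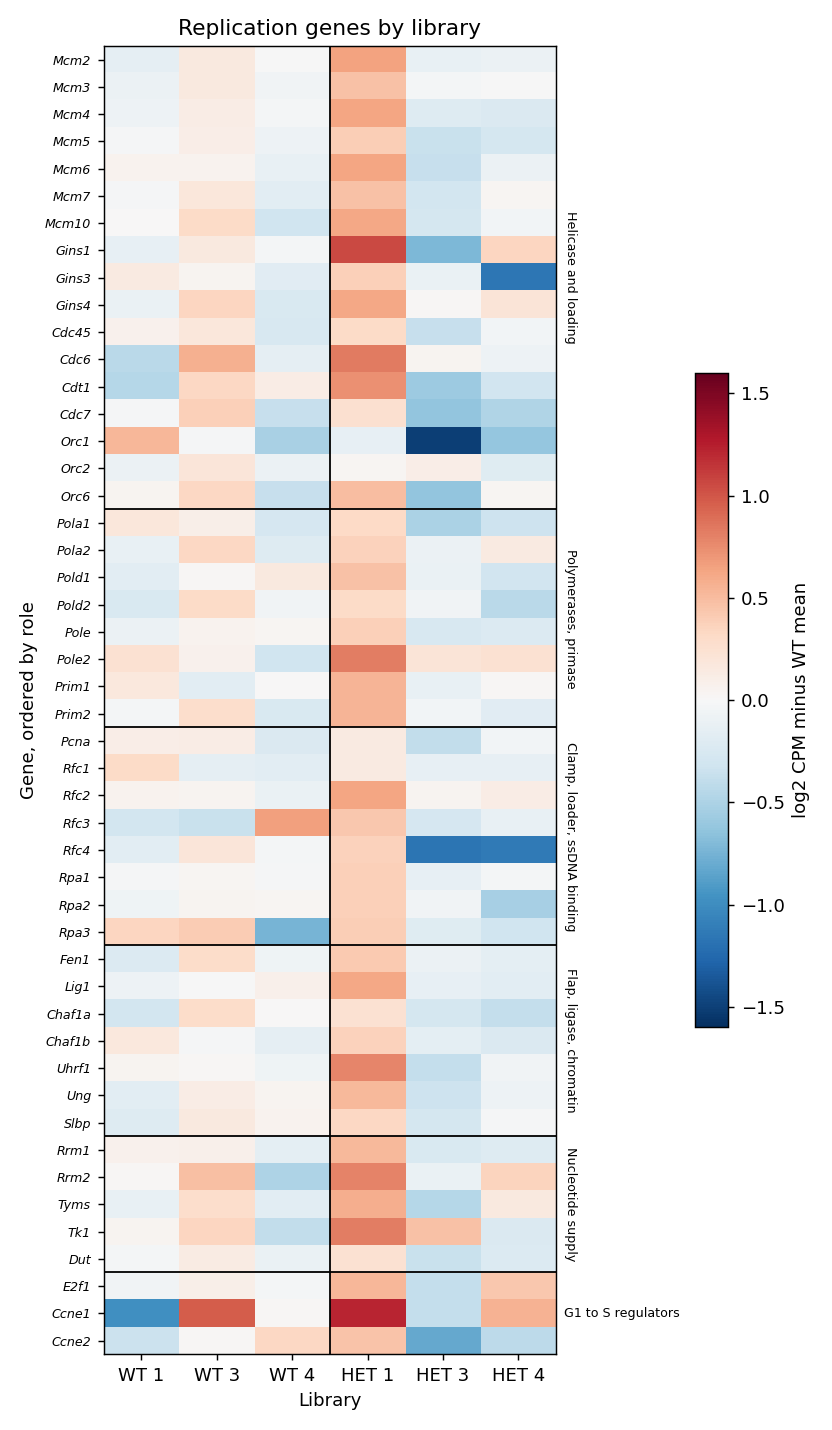
Colour gives the log2 CPM of each of 48 replication genes in each of 6 libraries minus the mean of the 3 WT libraries, with genes in rows grouped by role. The HET 1 column is the highest of its row in 40 genes, and HET 3 is the lowest in 22.

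HET 1 was also the deepest library. After its counts were thinned at random to 5011151, the mean member level (the average over the 48 genes of log2 CPM minus the WT mean) was 0.48 above WT, against 0.49 at full depth. Thinning removes the same fraction from every gene and keeps its expected share, so this level could hardly move. Whether depth or library quality plays a part in the HET 1 levels was not tested. HET 3 and HET 4 stood at -0.27 and -0.14 on this measure, and WT 1, 3 and 4 at -0.06, 0.17 and -0.11.

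Without HET 1, the remaining HET libraries lay on the lower side of WT for most members. Of the 48 fold changes 41 were negative and 7 positive, with a median of -0.20, against 50.6% negative and a median of -0.004 over all genes. In 24 members the sign changed when that library was left out. HET 1 lay above both other HET libraries in 47 members, against 35.1% of all genes. Leaving it out was therefore bound to lower most of these fold changes, and the shares over all genes do not allow for this. The members also varied together across libraries, so they are not separate cases. edgeR still called 0 members at an adjusted p of 0.05, with 0.616% of all genes called. An unadjusted p under 0.05 in the lower direction was reached by 9 members (18.8%), against 4.83% of all genes. HET 3 and HET 4 both lay below every WT library in 13 members (27.1%), against 12.3% of all genes, and both lay above in 0 members, against 11.9%. The 9 members were Mcm5, Mcm6, Dut, Cdt1, Cdc7, Orc1, Pola1, Rfc4 and Chaf1a. In bulk RNA, fewer cells in S phase and less of each transcript per cell cannot be told apart.

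**Figure D2:**
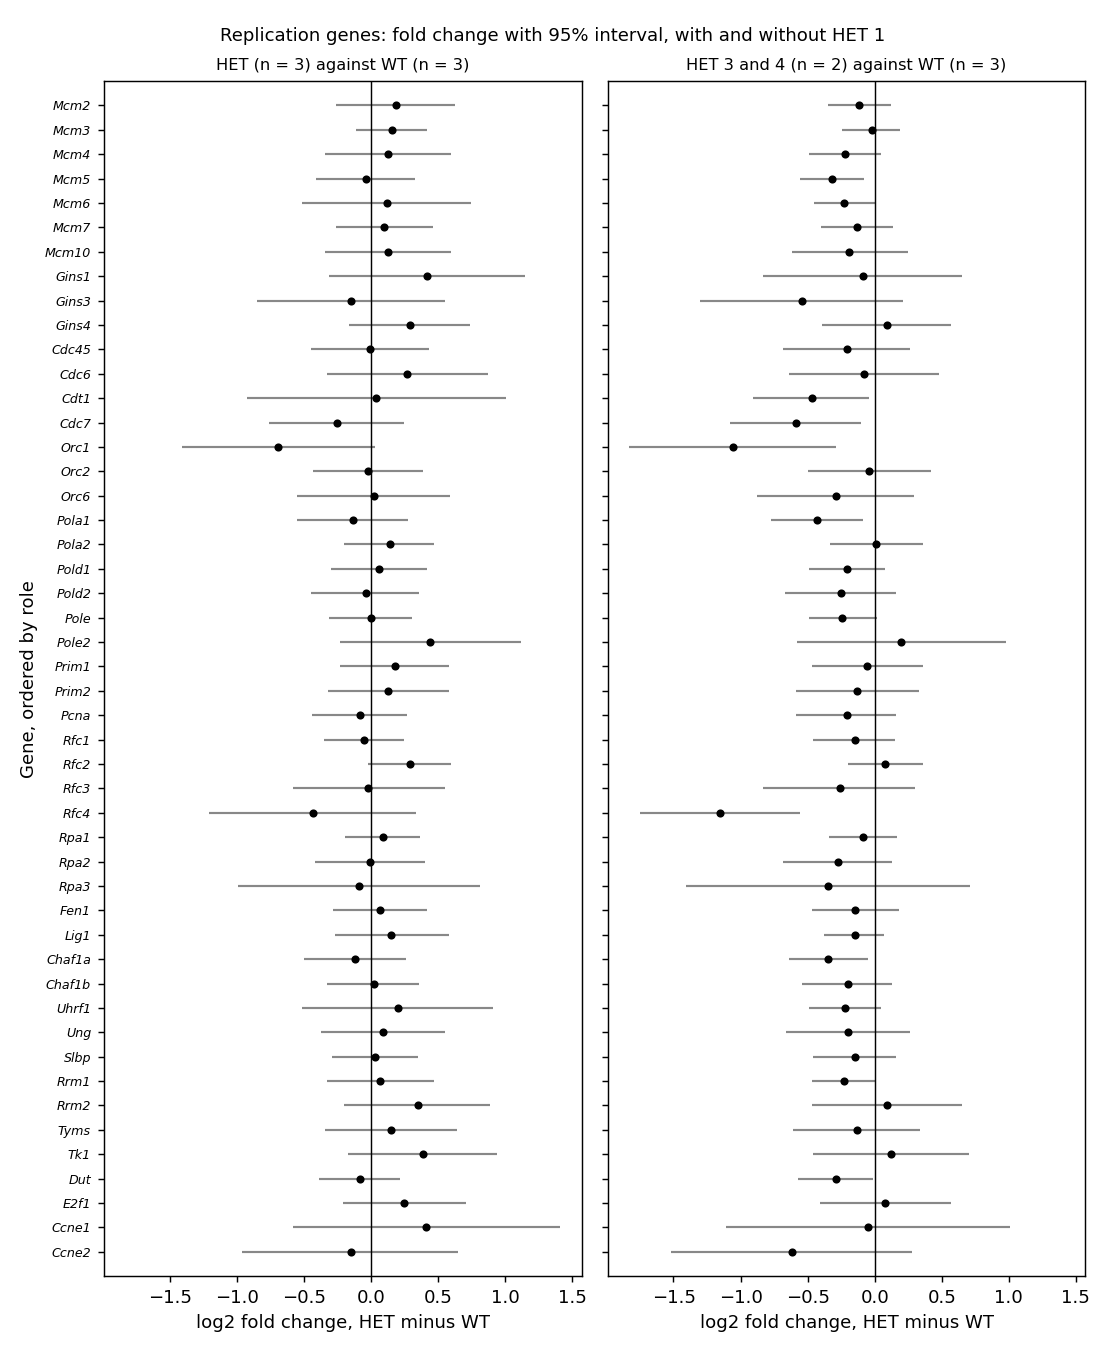
Points are edgeR log2 fold changes of 48 replication genes, HET minus WT, and lines are 95% intervals, for 3 HET libraries at left and for HET 3 and HET 4 at right. The median moves from 0.07 to -0.20, and the interval leaves 0 outside in 9 genes at right and in 0 at left.

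Among the helicase and loading genes, the MCM2-7 subunits form the ring that unwinds DNA. Mcm6 (ENSMUSG00000026355; GRCm38 chromosome 1, 128331590 to 128359664, minus strand) measured 600.2, 597.3 and 532.5 CPM in WT 1, 3 and 4. In HET 1, 3 and 4 it measured 889.1, 445.8 and 539.6 CPM. HET 1 stood above all others and HET 3 below all others, so the groups overlapped. The fitted change was 0.12 ± 0.26 (SE, log2) with all libraries and -0.23 ± 0.11 without HET 1 (edgeR adjusted p = 0.995 and 0.597). Mcm2 measured 354.9, 434.7 and 389.4 CPM in WT and 613.6, 360.3 and 365.6 CPM in HET, in the same library order. For Mcm3 the values were 506.2, 598.8 and 518.2 CPM in WT and 745.7, 527.1 and 537.6 CPM in HET. In both genes HET 3 and HET 4 fell inside the WT range, and the fold change without HET 1 was -0.12 ± 0.11 for Mcm2 and -0.02 ± 0.11 for Mcm3 (SE).

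Mcm5 and Mcm4 differed from that pair in that HET 3 and HET 4 lay below every WT library. Mcm5 measured 273.9, 299.7 and 262.3 CPM in WT and 366.7, 217.6 and 228.6 CPM in HET. Its fold change was -0.04 ± 0.17 with all libraries and -0.32 ± 0.12 without HET 1 (SE, log2; edgeR adjusted p = 0.995 and 0.365). Mcm4 measured 164.5, 189.0 and 171.2 CPM in WT and 270.5, 151.1 and 149.3 CPM in HET. Mcm7 completes the ring, with mean levels of 231.7 ± 28.5 CPM for WT and 247.7 ± 67.2 CPM for HET (SD, n = 3). Mcm10, a separate factor that helps to activate the helicase, was likewise highest in HET 1, with 87.0 CPM there and between 45.6 and 70.1 CPM elsewhere.

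Orc1, the largest subunit of the origin recognition complex, was 1 of 8 members in which HET 1 was not the highest library. HET 1 still exceeded the mean of HET 3 and HET 4 by 0.90 on the log2 scale. Orc1 (ENSMUSG00000028587; chromosome 4, 108579423 to 108614833, plus strand) measured 32.1, 22.0 and 15.5 CPM in WT and 20.2, 7.85 and 14.4 CPM in HET. HET 1 lay within the WT range and the other HET libraries lay below it. Its fold change was the lowest of the 48 with all libraries, -0.69 ± 0.35 (SE, log2; 95% interval -1.41 to 0.03; edgeR adjusted p = 0.952), and was -1.06 ± 0.37 without HET 1 (adjusted p = 0.353). With 36 to 204 counts per library it is a low-count gene. Orc2 had the smallest gap between HET 1 and the mean of HET 3 and HET 4, with HET levels of 45.0, 47.8 and 38.8 CPM, against 41.3, 50.7 and 41.3 CPM in WT. Orc6 measured 44.5 CPM in HET 1 and between 20.3 and 39.7 CPM in the other 5 libraries.

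The loading factors Cdt1 and Cdc6 varied widely within WT. Cdt1 measured 57.0, 98.8 and 85.1 CPM in WT and 130.1, 52.3 and 63.1 CPM in HET, with a fold change of 0.04 ± 0.40 with all libraries and -0.47 ± 0.21 without HET 1 (SE, log2; edgeR adjusted p = 0.539 in the latter). Cdc6 measured 25.4, 50.7 and 30.8 CPM in WT and 60.5, 35.3 and 32.2 CPM in HET. Its WT 3 value lay nearer to HET 1 than to the other WT libraries. Cdc7, the kinase that activates loaded helicases, was highest in WT 3 rather than HET 1, at 50.3, 66.2 and 39.3 CPM in WT and 60.5, 32.9 and 36.4 CPM in HET.

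Cdc45 and GINS join the ring to make the active helicase. Gins1 had the highest HET 1 value relative to WT in this group, with 15.3, 18.8 and 16.5 CPM in WT and 35.0, 10.2 and 21.4 CPM in HET. Both WT extremes lay between the HET 3 and HET 4 values. Gins3 measured 20.6, 19.2 and 16.5 CPM in WT and 24.3, 17.4 and 8.38 CPM in HET, so HET 4 lay lowest. Gins4 measured 37.3, 50.7 and 33.9 CPM in WT and 61.5, 40.6 and 46.2 CPM in HET, with only HET 1 outside the WT range. Gins4 and Cdc45 had fold changes of 0.29 ± 0.22 and -0.01 ± 0.21 (SE, log2) with all libraries. Of the 17 helicase and loading genes tested 0 were called in either fit, 14 were highest in HET 1, and 16 had a negative fold change without that library.

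Among the polymerase and primase genes, Pole encodes the catalytic subunit of the leading-strand polymerase. It measured 187.8, 209.1 and 205.3 CPM in WT and 260.1, 168.6 and 171.7 CPM in HET. The high HET 1 value and the low values of HET 3 and HET 4 balanced, giving a fold change of 0.00 ± 0.15 with all libraries and -0.24 ± 0.12 without HET 1 (SE, log2). Pola1, the catalytic subunit of polymerase alpha, measured 129.4, 121.7 and 94.4 CPM in WT and 142.3, 80.5 and 90.8 CPM in HET (-0.43 ± 0.17 without HET 1; edgeR adjusted p = 0.423). Its partner Pola2 did not share the low HET 3 and HET 4 values, with 97.8, 133.6 and 92.3 CPM in WT and 137.6, 100.1 and 117.5 CPM in HET. The primase subunit gene Prim1 measured 61.7, 48.8 and 55.1 CPM in WT and 80.2, 50.4 and 55.7 CPM in HET, so HET 1 alone left the WT range. Prim2, the other subunit, measured 65.0 CPM in HET 1 and between 37.9 and 54.2 CPM elsewhere.

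Pole2, a smaller subunit of the same leading-strand polymerase, had the highest fold change of the 48, 0.44 ± 0.32 (SE, log2; 95% interval -0.23 to 1.12). Its levels were 14.1, 12.4 and 9.54 CPM in WT and 21, 13.7 and 14.0 CPM in HET, so HET 3 and HET 4 overlapped WT. Pold1, the catalytic subunit of the lagging-strand polymerase delta, measured 222.6 CPM in HET 1 and between 130.2 and 179.1 CPM elsewhere. Pold2 was highest in WT 3, at 85.6 CPM, beside 85.4 CPM in HET 1. Of these 8 genes 7 were highest in HET 1 and 0 were called in either fit.

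The clamp loader RFC opens the PCNA ring and places it on primed DNA. Rfc4, a small RFC subunit (ENSMUSG00000022881; chromosome 16, 23113943 to 23127737, minus strand), showed the widest gap between HET 1 and the mean of HET 3 and HET 4, 1.49 on the log2 scale. It measured 29.2, 37.5 and 32.2 CPM in WT, 42.2 CPM in HET 1, with 14.6 CPM in HET 3 and 15 CPM in HET 4. Without HET 1 the fold change was -1.15 ± 0.29 (SE, log2; 95% interval -1.75 to -0.56). This was the smallest p of the 48 in that fit, with an edgeR adjusted p of 0.0708 and a DESeq2 adjusted p of 0.0196, so DESeq2 called Rfc4 and edgeR did not. With HET 1 included it was -0.43 ± 0.36 (edgeR adjusted p = 0.995). The exons of Rfc4 overlap those of Eif4a2, a translation factor gene on the opposite strand. Which strand was counted is unknown, so reads of that overlap could be shared. Eif4a2 itself measured between 379.6 and 415.7 CPM in WT and between 352.1 and 435.1 CPM in HET.

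Rfc2, which belongs to the same complex, had a positive fitted value with all libraries. It measured 138.9, 138.3 and 124.5 CPM in WT and 207.2, 138.0 and 144.8 CPM in HET, a fold change of 0.29 ± 0.15 (SE, log2; edgeR adjusted p = 0.952), and of 0.08 ± 0.13 without HET 1. Rfc3 was highest in WT 4, at 63.7 CPM, with 54.4 CPM in HET 1 and 31.5 to 37.2 CPM in the other 4 libraries. Rfc1, the large subunit, was highest in WT 1, at 187.3 CPM against 166.1 CPM in HET 1. RFC subunits therefore did not follow 1 order across libraries.

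Pcna itself differed little in HET 1. It measured 88.0, 89.3 and 70.1 CPM in WT and 90.9, 62.6 and 79.7 CPM in HET. The annotation names 2 Pcna pseudogenes, to which reads could be assigned, so its level is uncertain. The single-strand binding protein RPA has 3 subunits. Rpa1 measured 179.5, 185.9 and 180.1 CPM in WT and 237.2, 165.3 and 177.5 CPM in HET, with HET 1 above and the other HET libraries below every WT library. Rpa2 lay at 66.5 ± 2.60 CPM in WT and at 86.5, 64.1 and 46.0 CPM in HET. Rpa3, the member with the fewest counts, had between 20 and 106 per library. It measured 10.1, 10.6 and 4.77 CPM in WT and 10.5, 6.98 and 6.43 CPM in HET, all HET values falling inside the WT range, with a fold change of -0.09 ± 0.43 (SE, log2).

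Among genes of fragment joining and chromatin, Lig1 encodes the ligase that seals lagging-strand fragments. It measured 361.0, 381.1 and 404.7 CPM in WT and 584.7, 347.2 and 340.2 CPM in HET, with HET 1 above and the other HET libraries below every WT library. Uhrf1, which recognises newly copied DNA and brings in the maintenance methyltransferase, measured 196.7, 192.6 and 181.5 CPM in WT and 325.6, 145.7 and 182.2 CPM in HET. Its fold change was 0.20 ± 0.29 (SE, log2; edgeR adjusted p = 0.995). Fen1, which cuts the flaps before ligation, measured 164.9 CPM in HET 1 and 105.7 to 150.4 CPM elsewhere.

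CAF-1 places histones on new DNA. Its large subunit gene Chaf1a was highest in WT 3, at 173.7, 261.6 and 213.9 CPM in WT and 253.7, 176.2 and 164.5 CPM in HET (-0.35 ± 0.14 SE, log2, without HET 1; edgeR adjusted p = 0.494). Chaf1b measured 129.5 CPM in HET 1 and between 85.2 and 112.6 CPM elsewhere. Ung, a uracil-removing repair enzyme, measured 39.1, 47.6 and 45.1 CPM in WT and 62.7, 34.9 and 41.5 CPM in HET, with HET 1 above and HET 3 below the WT range. Slbp, which handles histone messenger RNA, and Ung had fold changes of 0.03 ± 0.15 and 0.09 ± 0.22 (SE, log2). In this group 6 of 7 genes were highest in HET 1, and all 7 had a negative fold change without it.

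Nucleotide supply genes make and purify the building blocks, and all 5 were highest in HET 1. Rrm1, the large subunit of ribonucleotide reductase, measured 286.9, 290.3 and 245.9 CPM in WT and 392.3, 231.2 and 237.7 CPM in HET. Rrm2, its S phase partner, measured 33.4, 46.1 and 23.4 CPM in WT and 57.2, 30.7 and 42.3 CPM in HET. HET 3 and HET 4 thus lay below WT for Rrm1 and within the WT range for Rrm2. Tk1, the thymidine kinase, measured 29.4, 36.2 and 21.7 CPM in WT and 50.4, 39.5 and 24.2 CPM in HET, and was one of 7 members whose fold change stayed positive without HET 1 (0.12 ± 0.28 SE, log2). Tyms, which makes thymidylate, measured 44.4, 58.5 and 42.7 CPM in WT and 72.1, 34.9 and 53.6 CPM in HET, on both sides of WT. The annotation names 1 Tyms pseudogene, which leaves that level uncertain. Dut, which removes dUTP, measured 185.2 CPM in HET 1, 122.1 and 133.7 CPM in HET 3 and HET 4, and 145.0 to 171.1 CPM in WT.

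The G1 to S regulators control entry into replication, and all 3 were highest in HET 1. E2f1, an activator of this programme, measured 41.0, 45.6 and 41.7 CPM in WT and 62.0, 32.7 and 57.5 CPM in HET. Here HET 4 lay with HET 1 above WT, and only HET 3 lay below. The cyclin E genes activate CDK2 at S phase entry. Ccne1 varied within WT, at 4.33, 16.6 and 8.59 CPM, and measured 19.8, 6.54 and 12.5 CPM in HET (0.41 ± 0.47 SE, log2). Ccne2 measured 9.38, 12.1 and 15 CPM in WT and 16.4, 6.76 and 8.96 CPM in HET.

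Levels scaled to exon length (CPM per kb) showed how subunits of 1 complex compare, over 6 libraries each. Within MCM2-7 the order was Mcm3, Mcm6, Mcm2, Mcm7, Mcm5 and Mcm4, from 188.8 ± 30.0 for Mcm3 to 50.9 ± 12.7 CPM per kb for Mcm4 (SD, n = 6). Mcm3 exceeded Mcm6 in 6 of 6 libraries, Mcm6 exceeded Mcm2 in 5 and Mcm7 exceeded Mcm5 in 4, and the ranges of all neighbours overlapped. The last of these pairs changed order when the longest coding transcript was used for length. Loading factors lay lower, from 37.0 ± 13.7 for Cdt1 to 6.2 ± 2.73 CPM per kb for Orc1 (SD, n = 6). Gins3, at 6.54 ± 1.97 CPM per kb, lay below Gins1 without overlap. In the same way Rpa3 lay below Rpa2 (12.3 ± 3.73 against 36.4 ± 7.14) and Pole2 below Pole (8.29 ± 2.22 against 27.0 ± 4.53 CPM per kb; SD, n = 6). These levels depend on the annotation used for length.

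**Figure D3:**
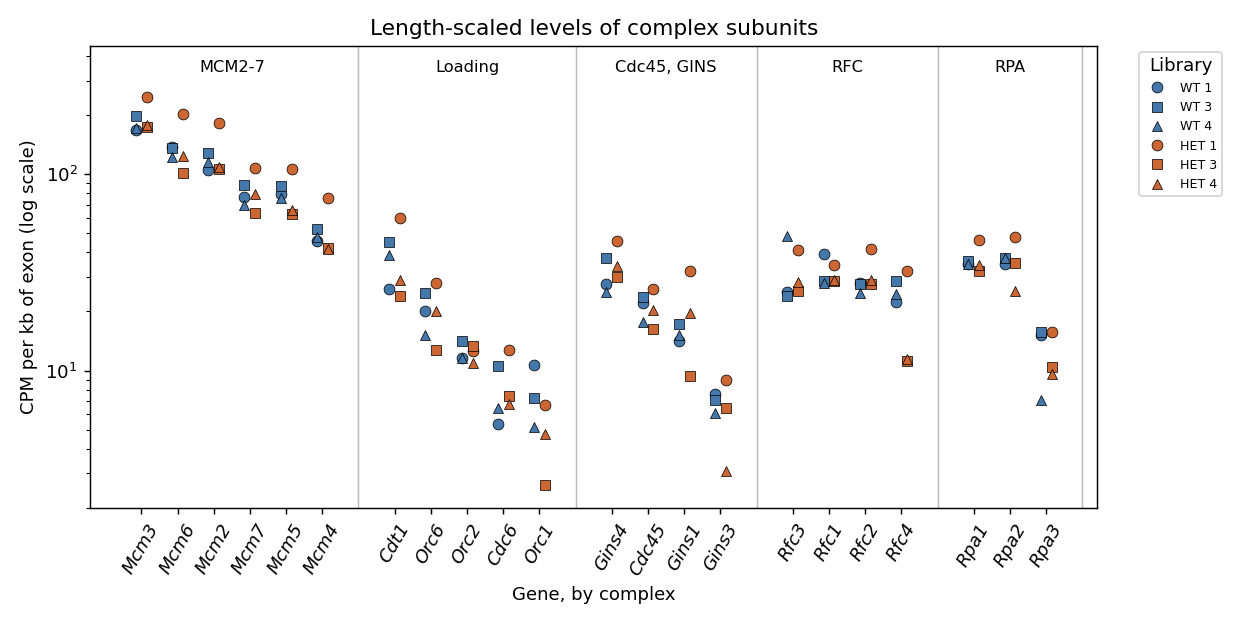
Points are CPM per kb of exon (log scale) in each of 6 libraries for subunits of 5 replication complexes, blue for WT and orange for HET. Mcm3 is the highest, at 167.0 to 246.0, and HET 3 and HET 4 stand apart for Rfc4, at the foot of its range from 11.2 to 32.3.

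Returning to the promoters, HET 1 was the highest library in 7 of the 9 members with an E2F match, the exceptions being Orc1 and Rfc3, and in 33 of the other 39. In the 9 members with a match, HET 1 exceeded the mean of HET 3 and HET 4 by a median of 0.84 (log2), with members from 0.61 to 1.0. In the 39 members with no match found or no promoter listed, the median was 0.62. These ran from 0.06 for Orc2 to 1.49 for Rfc4, a range that encloses the other. The difference between the medians was not tested. The most similar pair over the 6 libraries was Mcm6 and Uhrf1 (Pearson r = 0.994 of log2 CPM), both shown above with an E2F match. HET 1 was the highest point and HET 3 the lowest in both genes, and the points share library depth and scaling. The next pairs were nearly as similar, with r = 0.988 for Orc6 and Cdc45 and 0.987 for Uhrf1 and Rpa1. No E2F match was found in Orc6, Cdc45 or Rpa1.

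Other genes of the pathway were then counted. Of 54 further replication and S phase genes tested, 0 were called higher and 0 lower in either fit, and 38 were highest in HET 1. Their mean level was 0.36 in HET 1, -0.17 in HET 3 and -0.07 in HET 4, relative to WT on the log2 scale. Rif1, which controls origin timing, had the smallest p of these, at 79.9, 67.7 and 49.4 CPM in WT and 91.1, 118.6 and 93.5 CPM in HET (0.62 ± 0.18 SE, log2; edgeR adjusted p = 0.315). Every HET library lay above every WT library for Rif1, as in 0 of the members. Of 22 E2F and Rb regulators 0 were called in either fit and 10 were highest in HET 1, with a mean level of 0.21 there, -0.12 in HET 3 and -0.10 in HET 4, and the lowest level, -0.15, in WT 4.

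Genes of G2 and mitosis, which act after replication, also stood high in HET 1. Of 25 tested 0 were called in either fit, and 16 were highest in HET 1. HET 1, 3 and 4 had mean levels of 0.46, -0.54 and 0.05, and the WT libraries had 0.04, 0.26 and -0.30. HET 4 thus sat at the WT level for these genes and below it for the replication members (-0.14). Whether the 2 lists differ there was not tested.

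**Figure D4:**
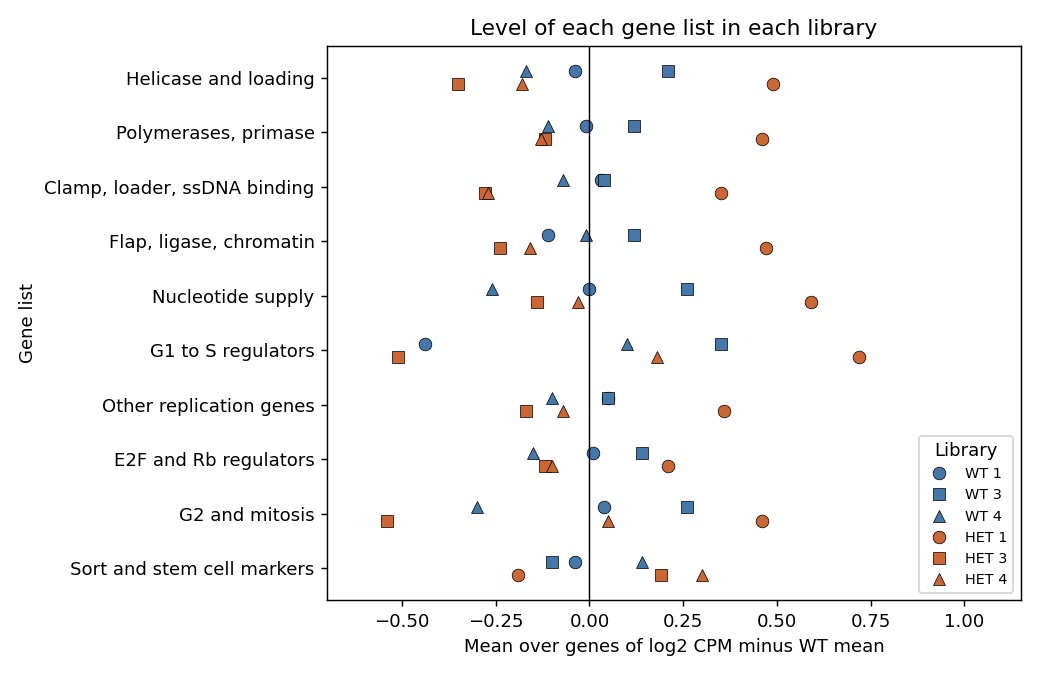
Each point is 1 library's mean log2 CPM minus the WT mean over the genes of a list, blue for WT and orange for HET. HET 1 lies highest in the 6 role groups of replication genes (0.35 to 0.72) and lowest for the sort and stem cell markers (-0.19). That marker list includes Cd48, which the sort selected against.

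Markers of the sorted stem cells and of other cell types also varied between libraries. The 13 sort and stem cell markers had a mean level of -0.19 in HET 1, 0.19 in HET 3 and 0.30 in HET 4. This list includes Cd48, a low-count gene that the sort selected against. Cd48 measured 8.29 and 8.96 CPM in HET 3 and HET 4, against 1.67 to 3.25 CPM in WT, which raises those 2 means. The summed level of the list was 3216.5, 3688.4 and 3761.7 CPM in HET 1, 3 and 4, against 3321.4 to 3689.1 CPM in WT. All 8 megakaryocyte markers were detected in every library, and their summed level was 1273.6, 1040.9 and 1084.0 CPM in HET 1, 3 and 4, above all WT libraries (899.7 to 930.6 CPM). Itga2b and Vwf made up most of these sums. Itga2b measured 316.3, 288.5 and 263.3 CPM in WT and 560.5, 364.0 and 390.5 CPM in HET. Vwf measured 371.8, 407.2 and 462.7 CPM in WT and 384.8, 478.5 and 463.8 CPM in HET. The mean log2 level of the 8 markers was 0.86, 0.13 and 0.32 in HET 1, 3 and 4. In WT 1, 3 and 4 it was 0.17, 0.04 and -0.21, so the groups overlapped on that measure. All 8 of these markers had a positive fold change with all libraries and 6 without HET 1, and 0 were called in either fit. Neutrophil granule genes (6 of 7 in the table, none at 0) summed to between 18.1 and 494.9 CPM in WT, highest in WT 3, while the HET 1, 3 and 4 sums were 268.3, 18.1 and 153.7 CPM. WT 3 and HET 1 were thus the highest libraries both for these genes and for the summed replication members. Progenitor markers (10 of 11 in the table) ranged from 404.0 to 553.1 CPM in WT and from 394.8 to 557.8 CPM in HET, with Ms4a3 at 0 in HET 4. Erythroid markers (7 of 11) summed to 801.5 to 917.8 CPM in WT and to 703.5 to 778.5 CPM in HET. Car2 made up most of those sums, at 791.3, 761.1 and 708.8 CPM in WT and 636.8, 603.0 and 676.4 CPM in HET. On the mean log2 level the groups overlapped, at -0.22, 0.30 and -0.08 in WT and 0.14, -0.36 and -0.10 in HET. With all libraries 4 erythroid markers had a negative fold change and 3 a positive one. Of 12 lymphoid markers 3 were tested, and 0 were called in either fit. The part of these markers in the replication levels was not tested.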

How the data were processed

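RNA-seq libraries of sorted stem cells (3 WT, 3 HET) were analysed from the raw gene counts (whole numbers) that the authors deposited. FastQC, STAR 2.5.2b, edgeR, limma and mm10 are named in the submitters' processing notes, without roles. The sources used here do not give the counter, annotation or strand setting, and the protocol fields of these samples describe another study. The table had been filtered: each gene's second-highest library reached at least 1.012 CPM.

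With edgeR 4.0.16 (R 4.3.3), genes were kept by filterByExpr, scaled by TMM and tested for HET against WT with the quasi-likelihood F-test (two-sided), group being the only term. P-values were adjusted by Benjamini-Hochberg over all genes tested (10869; 11047 without HET 1). Levels are CPM on TMM-scaled totals. Log2 levels used a prior count of 2. Standard errors were derived from the F statistic. Positions and exon lengths are from GENCODE M21 (GRCm38), the assembly also called mm10. A count of 3 equalled 0.303 to 0.706 CPM. Exonic overlap with a gene on the opposite strand was annotated for 14 members, whose counts may include its reads.

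The 24 members shown in every library by rule were, in each role, the 3 of smallest p and the most and least abundant, and values shown for the others were chosen after they were seen. The members and lists were chosen with earlier results of these data known. Scripts were tested on simulated counts, in which the fit of 6 libraries called 7.1% of genes changed by 0.5 log2 units. It called 56.1% of those changed by 1 log2 unit. DESeq2 1.42.0 and limma-voom (limma 3.58.1), other scalings and filters, and leaving out each library were tried as alternatives.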

Additional observations from a re-analysis of the deposited data

How the results depend on the processing

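With all 6 libraries 0 members passed under each of the 16 alternatives tried (RLE and upper quartile scaling, no filter, a stricter filter, DESeq2, limma-voom, the same with library weights, the replicate block, a threshold of 0.1, thinning of HET 1 and leaving out each library). Without HET 1 the count was 1 with DESeq2 and 1 at a threshold of 0.1, Rfc4 in each case, and 0 otherwise, and the cause was not tested. With the replicate block the member count was 0 in both fits and the median log2 fold change 0.04. Labels do not say whether same-numbered libraries are paired. Over all genes, the deviations of same-numbered libraries from their group means correlated at 0.112, -0.044 and 0.072, and those of other WT and HET pairs at -0.174 to 0.111. Deviations from a mean of 3 libraries depend on each other, so these values do not settle pairing. The median log2 fold change of the members lay between -0.20 and 0.21 when 1 library was left out, and of these only the value without HET 1 was negative. It lay between 0.04 and 0.10 under the other alternatives.

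For the 24 named members, values were taken under these alternatives except limma-voom with library weights and the threshold of 0.1. Of these 336 values 310 kept their sign and 0 passed the threshold. Pole, at 0.00, became -0.00 with DESeq2 and thinning and -0.03 with the replicate block, and Rpa3 became 0.00 with limma-voom. Leaving out 1 library moved the log2 fold change across 0 in Mcm3 (-0.02 to 0.25), Mcm6 (-0.23 to 0.31), Rrm1 (-0.23 to 0.20), Tyms (-0.13 to 0.38), Gins3 (-0.54 to 0.17), Pole (-0.24 to 0.11), Prim1 (-0.06 to 0.31), Rpa1 (-0.09 to 0.19), Rpa3 (-0.36 to 0.10), Lig1 (-0.15 to 0.30), Chaf1a (-0.35 to 0.04), Uhrf1 (-0.22 to 0.42), Ung (-0.20 to 0.26), Ccne1 (-0.05 to 1.04) and Ccne2 (-0.62 to 0.08). In 11 of these the turn came without HET 1. Counts down to 20 per library limit Rpa3 and the cyclin E genes.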
